A study of Mus musculus with 7 samples.

Results

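The locus described here is the window of mouse chromosome 10 that holds Myb, Hbs1l and the interval between them, from 50 kb beyond the far end of Myb to the far end of Hbs1l (chr10:21074930-21368889, GRCm38.p6, 294 kb). Its members were the LEF1 and TCF1 peaks of 6 libraries that touch this window, merged into regions wherever peaks of different libraries overlapped by at least 1 bp. There were 31 such regions of 38231 in the whole series, made of 122 peaks summed over the 6 libraries. The locus was selected on measured values of these same lists, because a region of the interval was already known to rank near the top of the series by fold enrichment, so its peak counts, strengths and ranks are given as a description. The window was divided into the 50 kb beyond Myb with 2 regions, the Myb gene with 1, the interval between the genes with 24 and Hbs1l with 4.

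The assay was CUT&RUN: a nuclease is tethered to an antibody, and the fragments it releases mark where the antibody's target sat on the DNA. Per the labels, the 6 antibody libraries were made from wild-type CD8 T cells of mouse spleen with a transgenic T cell receptor, P14, sorted as CD8+, Ly5.1+, CD44- and CD62L+, the surface profile of naive cells, which have not met their antigen. There were 3 libraries with an antibody to LEF1 and 3 with an antibody to TCF1. An input control from another gate (Ly5.1- and CD44+) was not analysed here, nor was a histone-mark control that the protocol names and that is not among the 7 labelled samples. No label ties a numbered replicate to an animal of its own, so the p-values compare libraries whose spread could be technical alone.

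Myb encodes c-MYB, a DNA-binding transcription factor of blood progenitors and immature T cells that is lowered as most blood lineages mature. Hbs1l encodes a GTPase that works with Pelota to release ribosomes stalled on messenger RNA. The interval between these genes is known in red cell precursors for distal enhancers of Myb, and its human counterpart is known for common variants tied to fetal haemoglobin. LEF1 and TCF1 (gene Tcf7) are related HMG-box proteins that bind short DNA sites of the kind CTTTGAT and act in T cell development and Wnt signalling.

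The lists differed in length, and 1 library stood apart. The LEF1 lists held 27666, 37646 and 23704 peaks and the TCF1 lists 25623, 22901 and 11423, so that of TCF1 replicate 3 was the shortest. The fold enrichment, the authors' ratio of signal at a peak's summit to the local background, was also lowest in TCF1 replicate 3, with a median of 9.53 over its list against 10.5 to 11.4 in the others. Read totals behind the lists were not given, so the depth is unknown. Differences in peak number, covered bases and share of peaks are given with and without TCF1 replicate 3. They are also given with every list cut to the 11423 peaks of highest −log10 q, the length of the shortest. Relative strengths, summit positions and counts per interval or stretch are given with all libraries only, so they rest on TCF1 replicate 3 too.

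The gene starts and the noncoding transcripts of the window set the frame for the peaks. Myb (chr10:21124930-21160984) is read from the minus strand and Hbs1l (chr10:21295979-21368889) from the plus strand, so the starts of both genes face the interval of 135 kb between them. RefSeq places the long noncoding RNAs Gm40608, Gm33619, Gm33671 and Gm33728 in the interval, and 4930455C13Rik within Hbs1l. Ahi1, a gene of the primary cilium, is the next protein-coding gene beyond Myb, and Aldh8a1, an aldehyde dehydrogenase, the next beyond Hbs1l.

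Promoter sequences are shown for the 2 protein-coding genes and for the 2 noncoding RNAs whose promoters lay on a peak region, because the promoters differed in whether LEF1 and TCF1 peaks covered them. They come from RefSeq (GRCm38.p6), each starts 250 bases before the gene's start, and Gm33619 and Gm33728 run to 50 bases after it. The Myb sequence is cut 30 bases after the start, and the Hbs1l sequence ends at the last base before the start. Capitals mark the TCF/LEF letters, which are CTTTGAT and the variants of it that end in AA, TT or TA, and the MYB letters, which are AACTG or the variant AACGG, each searched on both strands. The 4 promoters are given 5′ to 3′ in the direction of their gene.
Myb, chr10:21160955-21161234, minus strand: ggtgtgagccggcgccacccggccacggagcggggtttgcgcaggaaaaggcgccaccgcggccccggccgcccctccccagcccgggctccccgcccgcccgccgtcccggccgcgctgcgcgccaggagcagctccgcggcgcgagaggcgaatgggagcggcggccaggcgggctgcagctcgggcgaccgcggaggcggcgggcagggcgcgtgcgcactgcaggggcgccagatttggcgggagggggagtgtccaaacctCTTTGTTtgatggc
Gm33619, chr10:21186694-21186993, plus strand: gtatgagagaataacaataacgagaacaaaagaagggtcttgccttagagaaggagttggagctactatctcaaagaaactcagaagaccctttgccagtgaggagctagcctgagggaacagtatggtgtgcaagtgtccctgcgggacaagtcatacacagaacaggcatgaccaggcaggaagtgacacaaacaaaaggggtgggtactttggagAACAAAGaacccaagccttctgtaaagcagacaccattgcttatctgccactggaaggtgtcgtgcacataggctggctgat
Gm33728, chr10:21252193-21252492, minus strand: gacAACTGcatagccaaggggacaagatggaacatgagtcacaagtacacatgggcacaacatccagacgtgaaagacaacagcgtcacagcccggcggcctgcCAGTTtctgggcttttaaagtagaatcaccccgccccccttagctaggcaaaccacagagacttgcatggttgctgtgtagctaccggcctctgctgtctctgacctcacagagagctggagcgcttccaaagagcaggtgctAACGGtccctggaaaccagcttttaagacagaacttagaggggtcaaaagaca
Hbs1l, chr10:21295729-21295978, plus strand: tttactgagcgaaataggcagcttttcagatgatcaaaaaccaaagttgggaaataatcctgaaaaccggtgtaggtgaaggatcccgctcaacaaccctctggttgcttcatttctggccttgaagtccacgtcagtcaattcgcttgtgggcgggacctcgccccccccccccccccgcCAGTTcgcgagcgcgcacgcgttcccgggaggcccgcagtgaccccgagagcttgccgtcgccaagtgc

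No library listed a peak on the Myb promoter. It holds 1 TCF/LEF match, CTTTGTT at bases 267 to 273 of the printed sequence, which lies after the gene's start. The nearest peak on the upstream side, centred 0.697 kb before the start, was listed in LEF1 replicate 2 alone, at a fold enrichment of 6.40. Within the gene, 1 region lay 2.64 kb from the start (chr10:21158211-21159187). Its fold enrichment was 9.99, 13.8 and 11.1 in LEF1 replicates 1 to 3 and 9.21 and 6.75 in TCF1 replicates 1 and 2, with no peak in TCF1 replicate 3. It was the only region of the Myb gene, and it was split into 2 peaks in LEF1 replicate 1 and in TCF1 replicates 1 and 2.

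The Hbs1l promoter lay on a region in 5 of the 6 libraries (chr10:21295581-21296016). The fold enrichment there was 10.9, 18.3 and 10.6 in the LEF1 libraries and 12.3 and 11.2 in TCF1 replicates 1 and 2, again with no peak in TCF1 replicate 3. The 5 summits, the deposited points of highest signal, fell 163 to 191 bp before the start, at bases 60 to 88 of the printed sequence. The marked MYB letters (CAGTT, that is AACTG on the other strand) were 94 to 122 bp from the summits, and no TCF/LEF letters were found. Of 32851 mouse promoters of 300 bases, 26.6% lay on any region and 13.1% on a region found in all 6 libraries.

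Further into Hbs1l, 3 more regions were listed. The strongest of them, 41.4 kb from the start, had 9.27, 12.3 and 7.82 in the LEF1 libraries and 6.11 in TCF1 replicate 2. At 31.7 kb, the fold enrichment was 5.25 and 5.52 in TCF1 replicates 1 and 2 and 8.43 in LEF1 replicate 2, and this was the only region of the window held by TCF1 and not by LEF1 (3.23% of the 31, against 1.93% of all 38231 regions). A factor is said to hold a region when at least 2 of its 3 libraries list a peak in it. The remaining one, 0.550 kb from the start, was listed in LEF1 replicate 2 alone at 5.20.

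The promoters of Gm33619 and Gm33728 also lay on regions. At Gm33619 the region (chr10:21186808-21187143) had a fold enrichment of 11.8 and 15.7 in LEF1 replicates 1 and 2 and 9.03 in TCF1 replicate 1, and the other libraries listed none. Its summits were 46 to 74 bp before the start and 14 to 42 bp from the printed AACAAAG, which is CTTTGTT on the other strand. At Gm33728 all 6 libraries listed a peak (chr10:21251812-21252636), with 48.3, 54.1 and 43.3 in the LEF1 libraries and 34.0, 38.3 and 12.5 in the TCF1 libraries. The 6 summits fell within the promoter, at printed bases 102 to 114, which are 137 to 149 bp before the start. They were 0 to 5 bp from the printed CAGTT at bases 105 to 109, and this promoter holds none of the TCF/LEF letters. TCF/LEF letters were present in 16.9% of all promoters and in 13.4% of those on a region found in all 6 libraries, and MYB letters in 55.1% and 53.1%. The GATA letters (AGATAA, or TGATAA) were found once in the 4 promoters, as AGATAA on the other strand at bases 259 to 264 of Gm33619. They were in 18.6% of all promoters and in 9.47% of those on a region found in all 6 libraries. The ETS letters CCGGAAG were found in none of the 4, in 8.86% of all promoters and in 20.4% of those on such a region. A match to these letters is a description of the sequence and not a bound site.

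**Figure D1:**
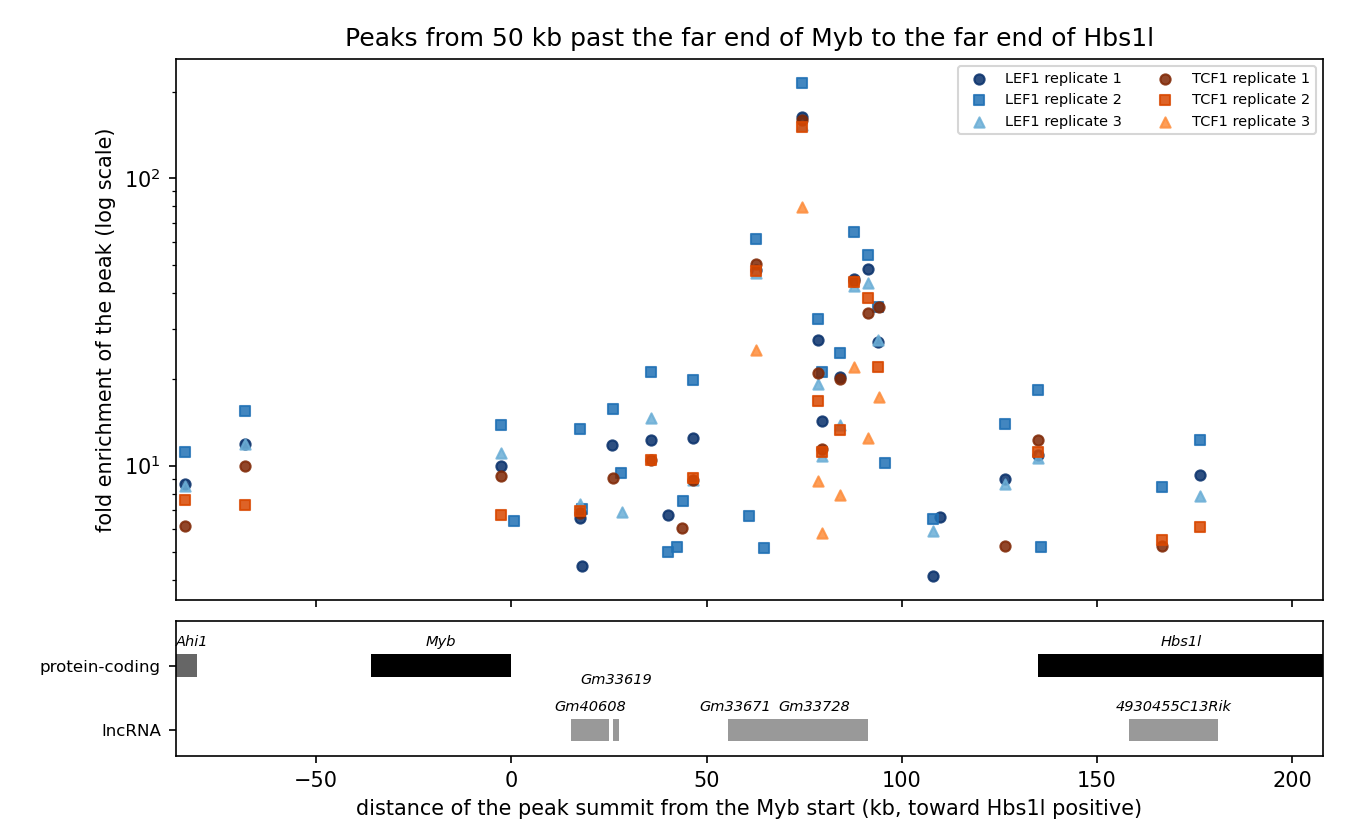
Fold enrichment (log scale) of the peaks of each library against the distance of the summit from the Myb start in kb, with 1 point per region and library (the strongest peak where a library has several) and the genes drawn below to scale. Points above 21.2 are found only between 62.7 and 94.1 kb, and the highest point of every library is at 74.5 kb.

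All 8 regions of the window found in all 6 libraries lay between the genes, within a stretch of 33.2 kb (chr10:21222627-21255828). The stretch begins 61.6 kb from the Myb start and ends 40.2 kb from the Hbs1l start. Gaps between neighbouring summits ran from 0.863 to 11.7 kb, with a median of 3.66 kb. TCF1 replicate 3 listed these 8 regions and no other of the window.

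The strongest of them lay 74.5 kb from the Myb start and 60.5 kb from the Hbs1l start (chr10:21234786-21236659), in the noncoding RNA Gm33728. Its fold enrichment was 163, 214 and 153 in LEF1 replicates 1 to 3 and 160, 151 and 79.5 in TCF1 replicates 1 to 3. It was at rank 6 in all 3 LEF1 lists and at ranks 10, 8 and 8 in the TCF1 lists. By mean rank percentile (0.0345, where 0 is the top of a list) it was number 6 of the 10890 regions found in all 6 libraries. The ranks from all lists are those of the measure the locus was chosen by.

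The next 3 by mean rank stood well below it. At 62.7 kb (chr10:21222627-21224716, in Gm33671) the fold enrichment was 48.1, 61.4 and 47.0 in the LEF1 libraries and 50.4, 47.5 and 25.3 in the TCF1 libraries. At 87.7 kb (chr10:21248412-21249185, in Gm33728) it was 44.6, 65.2 and 42.3 for LEF1 and 44.0, 43.7 and 22.0 for TCF1. The third of these, at 91.4 kb, is the Gm33728 promoter region given above. The region at 74.5 kb was 3.26 to 3.37 times as enriched as the next region of the window in the LEF1 libraries and 3.15 to 3.17 times in the TCF1 libraries. The next region was that at 91.4 kb in LEF1 replicate 1, at 87.7 kb in LEF1 replicate 2 and at 62.7 kb in the other libraries. The step was of similar size in all 6, although the values themselves differed.

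The other 4 were weaker, though most values stayed above the list medians of 9.53 to 11.4. At 94.1 kb (chr10:21254658-21255828) the values were 27.0, 35.8 and 27.3 for LEF1 and 35.7, 22.1 and 17.4 for TCF1. At 78.6 kb (chr10:21238723-21239894) they were 27.3, 32.3 and 19.2 for LEF1 and 21.0, 16.8 and 8.84 for TCF1. At 84.1 kb (chr10:21244681-21245458) they were 20.4, 24.6 and 13.8 for LEF1 and 20.1, 13.3 and 7.91 for TCF1. The weakest, at 79.5 kb (chr10:21240143-21240990), had 14.3, 21.1 and 10.8 for LEF1 and 11.4, 11.2 and 5.83 for TCF1. At each of the 8 regions TCF1 replicate 3 had the lowest value and LEF1 replicate 2 the highest.

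Among the 10890 regions found in all 6 libraries, these 8 spread from near the top to the lower part of the order. By mean rank, those at 62.7, 87.7 and 91.4 kb were numbers 951, 1203 and 2138. Those at 94.1, 78.6, 84.1 and 79.5 kb were numbers 2842, 5326, 6902 and 9206. Their merged widths ran from 774 to 2090 bp with a median of 1010 bp, against a median of 687 bp over all regions found in 6 libraries. The other 23 regions of the window had a median width of 309 bp and none exceeded a fold enrichment of 21.2. The 8 were set apart by being in every list, the shortest included, and merging over more libraries widens a region. Their contrast with the other 23 thus follows in part from how they were set apart.

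Most of the 8 lay on noncoding transcripts. Gm33728 (chr10:21228450-21252242) touched 6 regions, and all 6 were found in every library. Gm33671 (chr10:21216496-21228458) touched 3, of which only the one at 62.7 kb was found in every library, and its own promoter had no peak. In all, 7 of the 8 and 12 of the 24 regions of the interval touched a noncoding gene. Of the 8, the region at 94.1 kb was the one outside them. Gm33671 and Gm33728 adjoin and together cover most of the stretch of 33.2 kb, so regions there mostly fall on them. The share of all regions that touch a noncoding gene is not given here.

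Summits of the 8 regions were compared across libraries. At 74.5 kb 5 of the libraries placed the summit on the same base and LEF1 replicate 1 placed it 9 bp away. Summits spread over 12 bp at 91.4 kb, 21 bp at 87.7 kb, 25 bp at 84.1 kb and 27 bp at 62.7 kb. The spread was 45 bp at 78.6 kb, 73 bp at 79.5 kb and 163 bp at 94.1 kb, where TCF1 replicates 1 and 3 placed the summit apart from the other 4 libraries. The median spread over all 10890 regions found in 6 libraries was 49 bp, and 5.77% of them had a spread of 9 bp or less. These are regions of every strength, and the spread at regions as strong as that at 74.5 kb was not computed.

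**Figure D2:**
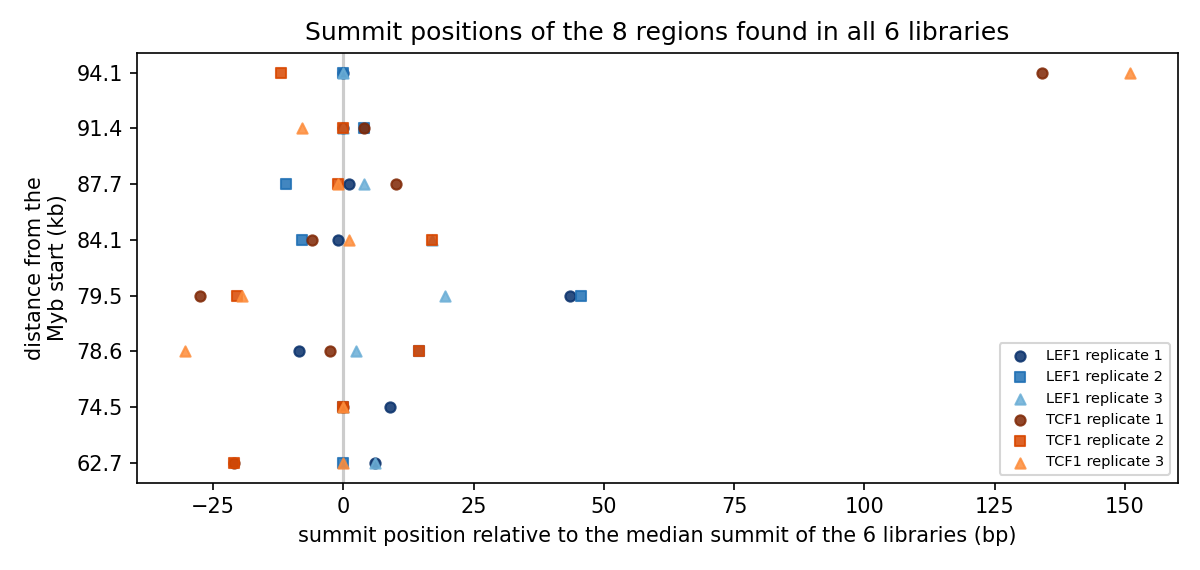
Summit position in bp relative to the median summit of the 6 libraries for the 8 regions found in every library, arranged by their distance from the Myb start. The summits at 74.5 kb lie within 9 bp, and at 94.1 kb TCF1 replicates 1 and 3 lie to the right of the other libraries.

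The relative strength of the 8 regions was compared between LEF1 and TCF1 by setting each value against the 74.5 kb region of the same library. This puts the libraries on the scale of that region and does not take out every difference in enrichment between them. The 74.5 kb region was 8.34 times the list median in TCF1 replicate 3 and 13.8 to 18.7 times in the other libraries. At 62.7 kb the fold enrichment was 29.7% ± 0.958 of the strongest region in the LEF1 libraries and 31.6% ± 0.111 in the TCF1 libraries (SD, n = 3 each). The 3 TCF1 values, 31.6 to 31.7%, all lay above the 3 LEF1 values, 28.8 to 30.7%. The other 6 regions overlapped between the factors. At 91.4 kb, the Gm33728 promoter, the LEF1 libraries had 27.8% ± 2.21 and the TCF1 libraries 20.8% ± 4.88 (SD, n = 3 each), with ranges of 25.3 to 29.7% and 15.7 to 25.5% that overlap narrowly.

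At the remaining 5 regions the libraries of the 2 factors overlapped as well. At 87.7 kb the means were 28.5% ± 1.74 for LEF1 and 28.1% ± 0.806 for TCF1, and at 94.1 kb they were 17.1% ± 0.662 and 19.6% ± 4.27 (SD, n = 3 each). At 78.6 kb they were 14.8% ± 2.14 and 11.8% ± 1.14, with ranges of 12.6 to 16.8% and 11.1 to 13.1%. At 84.1 kb they were 11.0% ± 1.83 and 10.4% ± 1.94, and at 79.5 kb 8.58% ± 1.42 and 7.30% ± 0.141. So 1 of 7 regions was higher in every TCF1 library and 0 of 7 in every LEF1 library. Over the 10889 other regions found in 6 libraries, set against the same region, 17.0% were higher in every TCF1 library and 14.6% in every LEF1 library. With 3 libraries a factor, an exact permutation test of a single region cannot go below 0.1. The ends of the order were shared by all 6 libraries, with the region at 74.5 kb in place 1, that at 84.1 kb in place 7 and that at 79.5 kb in place 8.

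**Figure D3:**
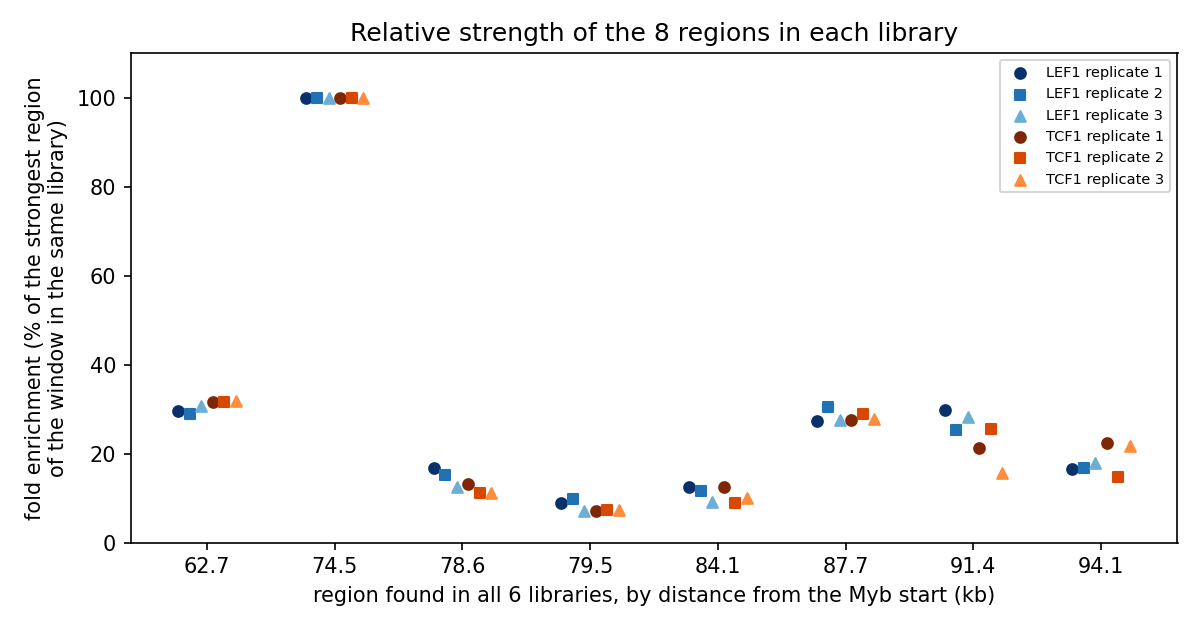
Fold enrichment of the 8 regions found in every library, as a percentage of the region at 74.5 kb in the same library, with 1 point per library. The regions at 62.7, 87.7 and 91.4 kb lie at or below 31.7% of the strongest and the order of the weakest 2 is the same in all libraries.

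Ranks were compared only between lists of equal length. In these, 7 regions of the window stayed in all 6 lists, and the one at 79.5 kb did not. Ranks at 74.5 kb were 6, 6 and 6 for LEF1 and 10, 8 and 8 for TCF1, and at 78.6 kb they were 3853, 5002 and 5236 for LEF1 and 5553, 6641 and 6401 for TCF1. These 2 of 7 ranked nearer the top in every LEF1 library, and 0 of 7 did so in every TCF1 library. Over the 8173 regions found in all 6 equal lists, 15.9% ranked nearer the top in every LEF1 library and 16.7% in every TCF1 library. The region at 74.5 kb could not be named by the relative strengths, since it is their reference. The region at 78.6 kb was named by the ranks alone and that at 62.7 kb by the relative strengths alone.

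Sharing of the 31 regions between the factors was close to that of the series. LEF1 held 22 of them (71.0%, against 71.7% of all regions) and TCF1 16 (51.6%, against 55.5%), and both held 15 (48.4%, against 53.6% of all 38231 regions). The 8 found in all 6 libraries were 25.8% of the window's regions, against 28.5% in the series. Another 7 (22.6%, against 21.4%) were found in every library but TCF1 replicate 3, so that 15 were found in all of the other 5 libraries. A further 7 (22.6%, against 23.1%) were found in 1 library only. In none of these shares did the window stand far from the series.

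LEF1 held 7 regions that TCF1 did not (22.6%, against 18.1% of all regions), and 1 of them was listed in every LEF1 library and in none of TCF1 (3.23%, against 3.14%). It lay 108 kb from the Myb start (chr10:21268840-21269275), with low fold enrichments of 4.14, 6.52 and 5.94. The reverse was seen in 0 of the 31 and in 0.0183% of all regions. Of the other 6, those at 18.0, 28.2 and 40.1 kb were listed in 2 LEF1 libraries and no TCF1 library, at 4.47 to 9.42. The region at 126 kb was listed in all 3 LEF1 libraries and in TCF1 replicate 1, at 5.25 to 14, and the last 2 are those at the Gm33619 promoter and 41.4 kb into Hbs1l. The 7 regions found in 1 library only had fold enrichments of 5.17 to 10.2, and 6 of them were in LEF1 replicate 2, the longest list. The region at 43.9 kb was in that library at 7.55 and in TCF1 replicate 1 at 6.09, so neither factor held it.

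Of the regions listed in every library but TCF1 replicate 3, that at 35.8 kb was the strongest, with 12.3, 21.2 and 14.6 for LEF1 and 10.5 and 10.5 for TCF1. The region at 46.6 kb had 12.5, 19.9 and 8.90 for LEF1 and 8.90 and 9.09 for TCF1. At 17.5 kb, in Gm40608, they were 6.57, 13.4 and 7.35 for LEF1 and 6.87 and 6.94 for TCF1. The same 5 libraries listed both regions beyond the far end of Myb: one in Ahi1 (chr10:21077123-21077568), at 6.15 to 11.2, and one between Ahi1 and Myb (chr10:21092622-21093427), at 7.31 to 15.5.

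Each factor's number of peaks in the window was then compared over libraries. LEF1 replicates 1 to 3 listed 24, 31 and 20 peaks and TCF1 replicates 1 to 3 listed 21, 18 and 8, so the groups overlapped. The means were 25.0 ± 5.57 and 15.7 ± 6.81 (SD, n = 3 each), a difference of 9.33 peaks (exact permutation test, two-sided, p = 0.200, smallest possible 0.1). Without TCF1 replicate 3 the difference was 5.50 (exact permutation p = 0.300). With lists of equal length the libraries held 8, 10 and 10 peaks for LEF1 and 7, 8 and 8 for TCF1, a difference of 1.67 (exact permutation p = 0.300). The groups overlapped or met at the same value under each of these 3 settings. With only peaks of −log10 q of at least 5 they did not overlap: the libraries held 22, 27 and 20 peaks for LEF1 and 18, 17 and 7 for TCF1, a difference of 9 peaks (exact permutation p = 0.100, the smallest possible). The lists were not cut to equal length at this cutoff. As a share of each list's peaks that pass it, the window held a mean of 0.0891% for LEF1 and 0.0778% for TCF1 (exact permutation p = 0.200).

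Between the genes the LEF1 libraries listed 18, 24 and 15 peaks and the TCF1 libraries 15, 11 and 8. The difference of 7.67 (19.0 ± 4.58 against 11.3 ± 3.51, SD, n = 3 each) had an exact permutation p of 0.200, and with equal lists it was 1.00 (exact permutation p = 0.6). Without TCF1 replicate 3 it was 6 peaks (exact permutation p = 0.300), and with peaks of −log10 q of at least 5 it was 6.67 (exact permutation p = 0.100). At that cutoff the lists were again not cut to equal length. The flank beyond Myb had 2 peaks in every library but TCF1 replicate 3, which had 0. The Myb gene had 2, 1 and 1 for LEF1 and 2, 2 and 0 for TCF1, and Hbs1l had 2, 4 and 2 and 2, 3 and 0.

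**Figure D4:**
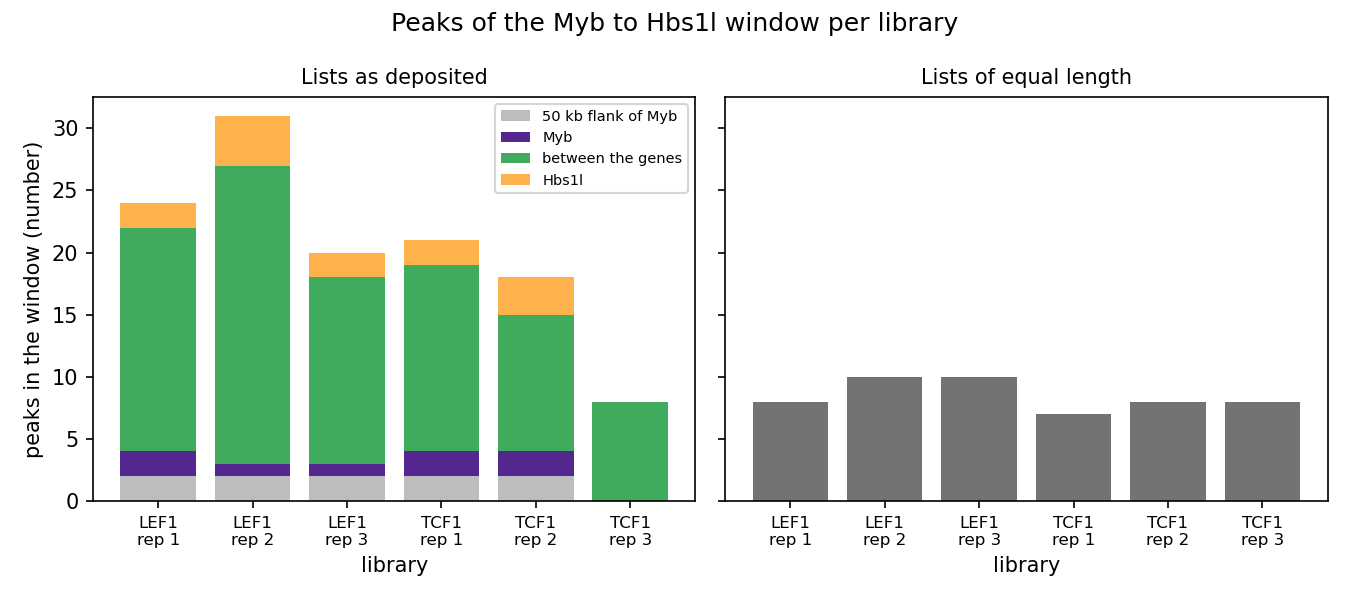
Number of peaks in the window per library, on the left for the lists as deposited and divided by place, on the right for lists of 11423 peaks each. The deposited counts run from 8 to 31 and most peaks of every library lie between the genes, while the equal lists give 7 to 10.

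The bases covered by peaks did not overlap between the factors. Covered bases depend on peak width as well as on peak number, and how many other windows separate the factors in this way was not counted. Peaks covered 12342, 16245 and 13383 bp of the window in the LEF1 libraries and 10647, 9374 and 4207 bp in the TCF1 libraries. Every LEF1 library was above every TCF1 library (13990 ± 2021 against 8076 ± 3411 bp, SD, n = 3 each). The difference of 5914 bp had an exact permutation p of 0.100, the smallest possible. Without TCF1 replicate 3 it was 3980 bp (exact permutation p = 0.200), with every LEF1 library still above the remaining TCF1 libraries. With equal lists the coverage was 7955, 9375 and 9617 bp for LEF1 and 6575, 6444 and 4207 bp for TCF1, a difference of 3240 bp (exact permutation p = 0.100). Of all bases covered by a deposited list, the window held 0.107, 0.101 and 0.125% for LEF1 and 0.0913, 0.0930 and 0.0972% for TCF1. These shares of bases were not tested and were not computed for equal lists. As a share of all peaks of a list, the window held 0.0867, 0.0823 and 0.0844% for LEF1 and 0.0820, 0.0786 and 0.0700% for TCF1 (difference 0.00763 percentage points, exact permutation p = 0.100). Without TCF1 replicate 3 that difference was 0.00421 points (exact permutation p = 0.200), and the groups still did not overlap. With equal lists it was 0.0146 points (exact permutation p = 0.300) and the groups met at the same value. The 4 p-values were not adjusted, since none was under 0.05.

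The interval between Myb and Hbs1l was set beside other intervals of the genome by the number of regions they hold. Regions found in all 6 libraries were 5.93 per 100 kb there and 0.332 per 100 kb over the 3986 intervals of 50 to 300 kb between neighbouring protein-coding genes. Of these intervals 81.8% held no such region. The Myb to Hbs1l interval held 8 and was number 10 of them, with 9 intervals above it, and 0.351% of intervals held as many or more. Those with the most were Rap1b to Mdm1 with 19, Ets2 to Psmg1 and Klf13 to Gm45988 with 12 each, followed by 4 intervals tied at 10, of which one, Tcf7 to Vdac1, lies beside the gene of TCF1 itself. Counting every region, it held 24, and 6 intervals held more.

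Density was also read without gene boundaries. Of the 10890 regions found in all 6 libraries, 18 (0.165%) begin a stretch of 33.2 kb with 8 or more such regions, and the most found in any stretch of that length was 9. The median was 1, the starting region itself, and 54.1% began a stretch with no further such region. Regions lying before the start of a stretch were not counted. Within the window itself, merged regions were 17.8 per 100 kb between the genes, 4.00 beyond Myb, 2.77 in Myb and 5.49 in Hbs1l.

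**Figure D5:**
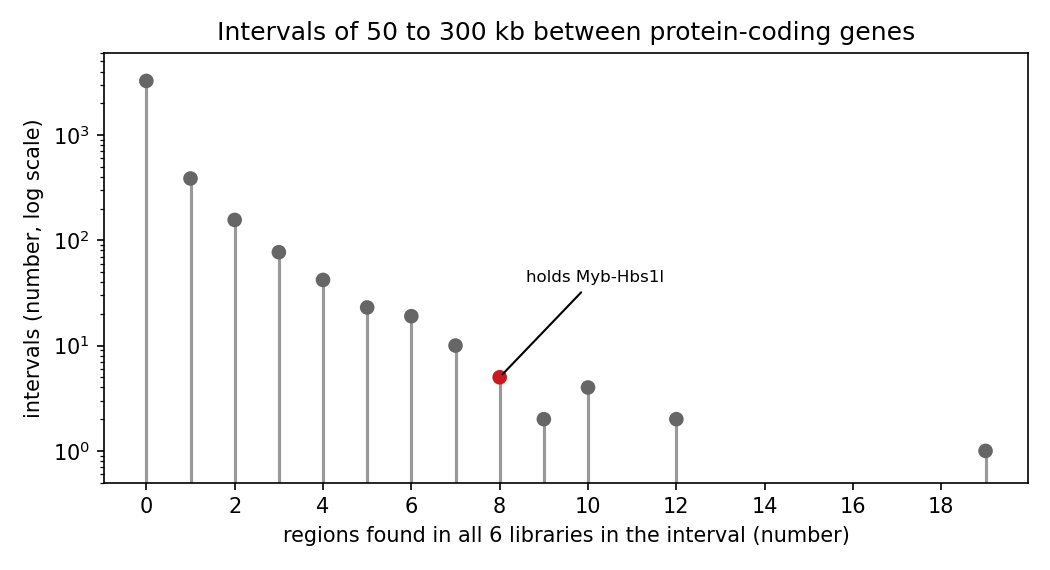
Number of intervals of 50 to 300 kb between neighbouring protein-coding genes (log scale) against the number of regions found in all 6 libraries that they hold. The red point is the class of 8 regions, which holds the Myb to Hbs1l interval and 4 others, and 3259 of 3986 intervals hold none.

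Intervals with the most similar make-up were found by the distance of their log2(peak count + 1) over the 6 libraries, among intervals of 50 to 300 kb. The nearest was Ugcg to Susd1 on chromosome 4 (91.4 kb, distance 0.329), with 23 regions, 11 held by both and 8 in all 6 libraries, against 24, 11 and 8 here. Lrrc74a to Irf2bpl followed (distance 0.465, with 20, 11 and 7), and Btg1 to Gm46240 on the same chromosome as Myb had 24, 13 and 9 (distance 0.549). Between these lay 2210010C04Rik to Try4 (distance 0.505, with 26, 13 and 7). This likeness covers peak counts over 6 libraries alone.

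The first region outside on the side of Ahi1 lay 19.9 kb away (chr10:21054843-21055044) and was listed in LEF1 replicate 2 alone, at 7.55. On the other side the first lay 14 kb beyond Hbs1l, in Aldh8a1 (chr10:21382894-21383319), and was listed in the 3 LEF1 libraries at 11.1 to 19.7 and in no TCF1 library.

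Genes that work with MYB or with HBS1L were looked up with a margin of 10 kb around each gene. Over all 21887 protein-coding genes, 52.6% had a region held by LEF1 in this margin, 49.8% one held by TCF1 and 33.8% one found in all 6 libraries. In the MYB family, Myb and Mybl1 each had 1 region held by LEF1 and 1 held by TCF1, and Mybl2, the family member of dividing cells, had none. So the regions between 62.7 and 94.1 kb are not counted for Myb by such a margin.

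All 8 cofactors and regulators of MYB had regions held by each factor and at least 1 found in all 6 libraries. Nlk, a kinase that marks c-MYB for breakdown, had 9 held by LEF1 and 7 by TCF1, and Trib2, a pseudokinase of protein turnover, 8 and 7. Men1, which encodes menin, had 4 and 4, while Kmt2a, its histone methyltransferase partner, and Fbxw7, part of a ubiquitin ligase, had 4 and 1 each. All 10 genes linked to MYB in lymphocytes or progenitors had regions of both factors, 8 of them with a region found in all 6 libraries. Ikzf1, the lymphoid factor Ikaros, had 20 and 16, Bcl2, the survival gene, 19 and 15, and Tcf7 13 and 11.

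Of 17 ribosome rescue genes, 16 had a region held by LEF1 and 16 by TCF1, and 10 had one found in all 6 libraries. Hbs1l itself had 3 and 2 with this margin and none found in all 6 libraries. Gtpbp1 and Gtpbp2, its relatives among the GTPases, had 5 and 5 and 4 and 4. Tcf25, a factor of ribosome quality control, had 5 and 4, and Ascc2, which helps to split collided ribosomes, had none. Of 5 factors of red cell precursors and blood progenitors, Runx1 had 20 and 15, Klf1 3 and 3 and Ldb1 2 and 2, while Gata1 and Tal1 had none. The neighbours Ahi1 and Aldh8a1 had 2 and 2 and 1 and 0. The lists were chosen with results of these data known and count what lies near a gene, so the counts are a description.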

How the data were processed

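The series labels 7 samples, and the 6 antibody libraries, grouped by the antibody in their titles, were used. The submitters' processing notes name MACS3 3.0.3, a peak caller, the aligner Bowtie2 2.4.4, the trimmer Trim Galore 0.6.6, and FastQC 0.12.1, deepTools 3.5.1 and Picard, on build GRCm38.p6. How duplicates were filtered and which control the caller had is not given in the sources used here, and both decide which peaks exist. Peaks were called per library, per the file headers of each list's peak names. In the deposited lists the fold enrichment is a ratio of summit signal to local background, the p-value and q-value of a peak are −log10 values (lowest −log10 q 2.00 to 2.06), and the deposited score is the −log10 q rescaled to whole numbers. These values are the authors' own and were used within a list.

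Coordinates are 1-based. Peaks of the 6 libraries were merged where they overlapped by at least 1 bp, and a region that touches a gene by 1 bp was placed in the gene. Each library's value in a region is that of its strongest peak. Peak counts, covered bases and shares of peaks were compared by exact two-sided permutation over all 20 ways to split the 6 libraries 3 and 3, so p cannot be below 0.1. With 1 library left out, the groups are of unequal size and the remaining libraries were split in those sizes. There p can be above its smallest value although the groups do not overlap. Genes and promoters came from RefSeq tables of the same build. The list of 21887 protein-coding genes and the 32851 promoters have no exons, so exons and introns were not told apart. No genome sequence was used, so the sequences of the distal regions are not printed. Scripts ran in Python 3.11.15 with NumPy 2.4.6 and were tested on simulated data.

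The locus, its genes, the gene lists and the motifs were chosen with earlier results of these data known. The genes named are the window's own and their neighbours, and of each list the 3 with the most regions and any with none. Of the 5 intervals most like this one in peak counts, 1 is not reported here. All regions found in all 6 libraries or in every library of 1 factor and none of the other were described. Alternatives were lists of equal length (11423 peaks), a −log10 q of at least 5, an overlap of at least 100 bp, holding in 3 of 3 libraries, a window without the 50 kb beyond Myb, every summit counted, each library left out, and a replicate block.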

Additional observations from a re-analysis of the deposited data

How the results depend on the processing

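Over 9 results and their alternatives, 87 of 94 values kept their direction and were labelled as the same, 7 moved and 0 reversed. The label was meant for moves within 1.5 times or within the spread between libraries, but it is wide. It takes in the difference in window peaks, which fell from 9.33 to 1.67 with lists of equal length. It also takes in that between the genes, which fell from 7.67 to 1.00. Both drops are larger than the SD of either factor, so the label does not mean a stable difference. With lists of equal length the window held 13 merged regions, 7 held by both factors, and the mean rank percentile of its strongest region was 0.0642 in place of 0.0345. Leaving out a library in turn gave 8 to 15 regions held by both factors (8 without TCF1 replicate 1 or without TCF1 replicate 2) and 8 to 15 regions found in every remaining library (15 without TCF1 replicate 3). Held in 3 of 3 libraries by both factors were 8 regions. These settings use smaller lists or fewer libraries. The strongest region had the same ranks in the equal lists as in the full ones, so its percentile moved with list length. Without TCF1 replicate 1 or 2, a region held by TCF1 has to be listed in TCF1 replicate 3, which listed 8 regions of the window. Other causes were not tested. The difference in window peaks stayed between 5.50 and 12.0 with 1 library left out, and none of the 4 comparisons of LEF1 and TCF1 reached 0.05 under any setting, which 3 libraries a factor cannot reach. Deviations of same-numbered LEF1 and TCF1 libraries correlated at 0.04, 0.07 and 0.09 over the 10890 regions. Those of differently numbered libraries correlated at -0.08 to 0.02, below each same-numbered value. All of these correlations were weak, and whether replicate numbers pair the libraries was not tested. With a replicate block the difference of 9.33 peaks had an exact sign-flip p of 0.250, the smallest that 3 pairs allow. Fold enrichment and list length limit what TCF1 replicate 3 can show, and read depth is unknown.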
